A study of Mus musculus with 11 samples.

Results

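Interferon-stimulated genes were followed in mouse liver 5 days after intraperitoneal injection of adeno-associated virus serotype 8 (AAV8) vectors. The set holds 39 genes, listed by name, out of 22911 genes that the array probes name through a RefSeq accession. A probe of 37 of the 39 genes was found in this way, with 56 probes among them. Mx1 and Mx2, antiviral dynamin-like GTPases, matched no probe by accession and have no value here. Oas3, an oligoadenylate synthetase, had 1 probe that was not well above background on any array, and it was not tested. The remaining 36 genes were tested, each through its probe with the highest mean over the arrays, and that probe was well above background on 11 of 11 arrays for all 36. The mice were C57Bl6/J males, 8 weeks old at injection, and every mouse received a total of 6e+11 vector genomes (vg). The GFP group (n = 3) received 6e+11 vg of a vector for green fluorescent protein. The NICD1 group (n = 3) received 3e+11 vg of a vector for the intracellular domain of Notch1, the part of the receptor that enters the nucleus, together with 3e+11 vg of the GFP vector. The NICD2 group (n = 3) received 3e+11 vg of a vector for the Notch2 intracellular domain with 3e+11 vg of the GFP vector. The NICD1&2 group (n = 2) received both NICD vectors, 3e+11 vg of each, without GFP vector. All vectors carried a cytomegalovirus promoter, which is not restricted to hepatocytes. No group without a vector was analysed here, so the effect of injection itself could not be measured, and each comparison asks only whether the genes differed between vector mixtures. The dose of GFP vector falls as NICD vector is added, so the loss of one and the gain of the other cannot be told apart.

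Cells that detect foreign nucleic acid through sensors such as Ifih1 (MDA5), Ddx58 (RIG-I), Tlr3 or cGAS make interferons, which act on the same and on neighbouring cells. Type I interferons signal through Ifnar1 and Ifnar2 to a complex holding Stat2 and Irf9 that binds the interferon-stimulated response element (ISRE). Interferon-gamma, made mainly by T cells and natural killer cells, signals through Ifngr1 and Ifngr2 to the gamma-activated site (GAS), and raises Irf1, the guanylate-binding and immunity-related GTPases and the immunoproteasome. In the liver, hepatocytes and Kupffer cells, the resident macrophages, both carry these programmes.

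The 11 arrays were 1-colour Agilent arrays of whole liver RNA, and levels are given as deposited, on the log2 scale relative to the 75th percentile of each array. A log2 difference of 1 is a doubling. Between 57.0% and 62.0% of spots on an array were well above background, and no spot was saturated. The arrays lay on 2 slides, of which the first held GFP replicates 1 and 2, NICD1 replicate 1, NICD2 replicates 1 and 2 and NICD1&2 replicate 1, and the second held the other 5, so that GFP replicate 3 was the single GFP array of its slide. The mean level of 10 hepatocyte markers lay between 8.21 and 8.58 on all arrays. The Notch1 probe overlapped between groups, and on the Notch2 probe the NICD1 arrays lay above the GFP and NICD1&2 arrays. Which part of each transcript they read is unknown, so they do not check the NICD labels. Nothing in the sources used here says which arrays were prepared together, so p-values measure the spread between these arrays.

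The first 250 bases upstream and 50 downstream of a gene's start were at hand for 30 of the 39 genes, in 36 windows (RefSeq, GRCm38.p6). An ISRE core, written TTTCNNTTTC and searched on both strands with overlapping matches counted apart, was present in 16 of the 36 windows (44.4%) and in 3.44% of all 32851 windows of the table. The palindromic GAS core TTCNNNGAA was present in 9 of the 36 (25%) and in 8.3% of all. A match is only a run of letters, not a bound site. The 4 genes whose levels varied most over the arrays, and for which results follow below, are shown 5′ to 3′ on the gene's strand with core matches in capitals.
Igtp (chr11:58199306-58199605, forward strand, an ISRE core and a GAS core): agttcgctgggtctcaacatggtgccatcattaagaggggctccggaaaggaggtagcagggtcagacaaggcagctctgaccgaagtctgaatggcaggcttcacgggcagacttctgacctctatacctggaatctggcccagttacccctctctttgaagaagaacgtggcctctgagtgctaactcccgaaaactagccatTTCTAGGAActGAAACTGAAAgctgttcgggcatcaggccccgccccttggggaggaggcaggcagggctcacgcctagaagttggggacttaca
Oasl1 (chr5:114922990-114923289, forward strand, no match to either core): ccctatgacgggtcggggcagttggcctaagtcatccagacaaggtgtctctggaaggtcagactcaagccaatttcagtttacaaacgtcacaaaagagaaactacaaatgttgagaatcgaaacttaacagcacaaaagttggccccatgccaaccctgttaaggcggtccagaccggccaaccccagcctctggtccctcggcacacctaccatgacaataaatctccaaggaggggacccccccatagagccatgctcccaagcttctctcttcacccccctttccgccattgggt
Gbp2 (chr3:142620413-142620712, forward strand, an ISRE core): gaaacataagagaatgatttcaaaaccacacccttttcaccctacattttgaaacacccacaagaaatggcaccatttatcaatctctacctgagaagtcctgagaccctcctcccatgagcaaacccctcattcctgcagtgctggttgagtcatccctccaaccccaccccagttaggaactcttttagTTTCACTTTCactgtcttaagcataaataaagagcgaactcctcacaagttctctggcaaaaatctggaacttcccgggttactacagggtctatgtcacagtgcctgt
Irf1 (chr11:53769764-53770063, forward strand, a GAS core): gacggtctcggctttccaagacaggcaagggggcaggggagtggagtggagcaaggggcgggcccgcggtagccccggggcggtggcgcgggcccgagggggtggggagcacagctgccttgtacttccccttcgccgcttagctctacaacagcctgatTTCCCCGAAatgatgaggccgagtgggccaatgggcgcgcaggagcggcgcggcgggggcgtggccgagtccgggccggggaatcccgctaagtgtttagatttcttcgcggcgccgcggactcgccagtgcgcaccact
Counted from the gene's start, the cores began at -34 and -45 in Igtp, at -59 in Gbp2 and at -90 in Irf1. A second Irf1 window in the table, from a start further downstream, held neither core. The windows of Psmb9 and Tap1 overlap, since these neighbouring genes are read in opposite directions from a shared stretch.

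No interferon-stimulated gene passed an adjusted p of 0.05 in any of the 6 pairwise comparisons, and most of the 36 had their higher mean in the GFP group. In NICD1 livers 32 of 36 genes had a lower mean than in GFP livers, with a median log2 difference of -0.30, against 47.1% of all 36058 tested probes. In NICD2 livers 29 of 36 were lower, with a median of -0.21, against 45.7% of all probes. In NICD1&2 livers 25 of 36 were lower, with a median of -0.21, against 35% of all probes. The median of all probes was 0.01, 0.02 and 0.12 in these comparisons, and relative to it the medians of the set were -0.31, -0.23 and -0.32. The counts differed between the slides on which the arrays lay, with 19, 25 and 27 of 36 lower within the first and 33, 32 and 26 within the second. Without NICD1&2 replicate 1 the NICD1&2 median was -0.099 with 22 of 36 lower, and without replicate 2 it was -0.31 with 29 lower. As whole liver was measured, fewer cells of a type and less RNA per cell cannot be told apart. The 3 comparisons share the same GFP arrays and are not independent.

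**Figure D1:**
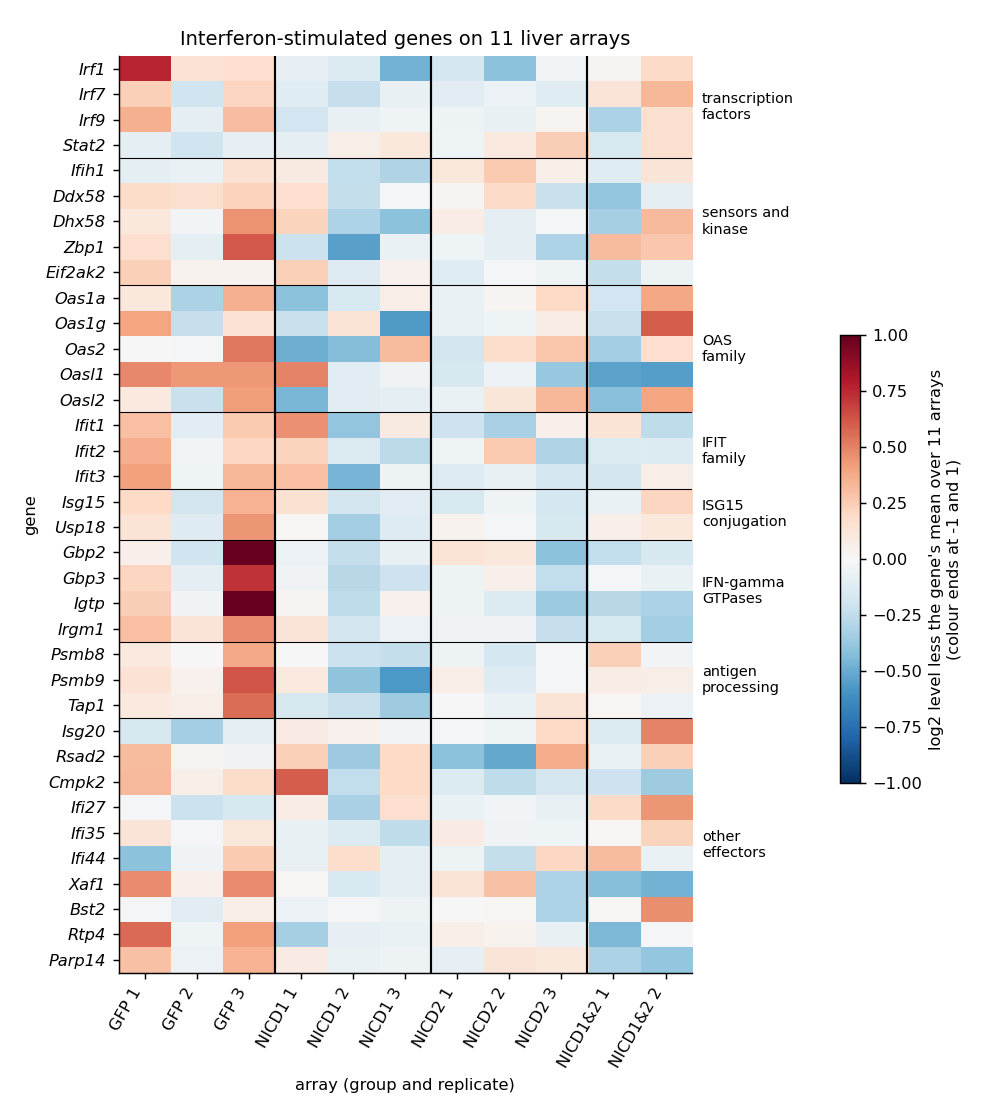
Each row is 1 interferon-stimulated gene and each column 1 array, and the colour gives the log2 level less the mean of that gene over the 11 arrays. Red fields gather on GFP replicates 1 and 3, and among the darkest are Gbp2, Gbp3 and Igtp on GFP replicate 3 and Irf1 on GFP replicate 1.

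The array means differed within the GFP group as well as between groups. Averaged over the 36 genes, the level was 1.77, 1.52 and 1.91 on GFP replicates 1, 2 and 3, against 1.59, 1.38 and 1.47 on the NICD1 arrays, 1.52, 1.54 and 1.52 on the NICD2 arrays, and 1.45 and 1.63 on the NICD1&2 arrays. GFP replicates 1 and 3 were the 2 highest arrays, and GFP replicate 2 lay among the NICD arrays. GFP replicate 3 held the highest value of 16 of the 36 genes and the lowest of none. Without GFP replicate 3 the medians against GFP became -0.18 for NICD1, -0.12 for NICD2 and -0.083 for NICD1&2, and without GFP replicate 2 they became -0.39, -0.32 and -0.30. Within the first slide the median was -0.0048 for NICD1 (1 array against 2), -0.098 for NICD2 (2 against 2) and -0.20 for NICD1&2 (1 against 2). Within the second slide, where GFP replicate 3 stood alone, it was -0.45, -0.36 and -0.32.

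By limma with Benjamini-Hochberg adjustment over all probes, 0 of 36 genes passed in NICD1 against GFP, where 0.00832% of all probes did, and 10 had an unadjusted p under 0.05, all of them lower (of all probes, 5.48% had one and 2.51% had one and were lower). In NICD2 against GFP 0 of 36 passed (0.0527% of all probes), and 4 had an unadjusted p under 0.05, all lower (6.81% and 3.05% of all probes). In NICD1&2 against GFP 0 of 36 passed (0.0998% of all probes), and 8 had an unadjusted p under 0.05, of which 7 were lower (14.8% and 4.60% of all probes). These counts moved with single arrays. Without GFP replicates 1, 2 and 3 in turn they were 4, 16 and 2 in NICD1, 3, 13 and 2 in NICD2, and 6, 10 and 6 in NICD1&2. Without NICD1 replicates 2 and 3 in turn the NICD1 count was 3 and 4, without NICD2 replicate 1 it was 6, and within the first slide the counts were 0, 2 and 2. The linear model without moderation also passed 0 of 36 in each. The study called a gene altered at a fold change over 1.8 with a p under 0.15, which is read here as the p before adjustment. By that definition 0 of 36 were altered in NICD1 livers (2.22% of all probes), 0 in NICD2 livers (1.98%) and 1, Oasl1, in NICD1&2 livers (6.23%). This count reads each gene through its probe with the highest mean. In NICD1&2 livers 3 other probes, all of Ddx58, also met the definition, at 1.93-, 2.04- and 2.15-fold lower levels. The arrays of the compared groups did not overlap, with the NICD arrays below every GFP array, for 6 of 36 genes in NICD1 (5.44% of all probes), 8 in NICD2 (5.66%) and 10 in NICD1&2 (10.4%). In the opposite direction they did not overlap for 1, 2 and 1 of the 36, against 6.98%, 7.70% and 24.1% of all probes. With 3 arrays against 3, or 2 against 3, an exact permutation test of a single gene cannot go below p = 0.1.

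**Figure D2:**
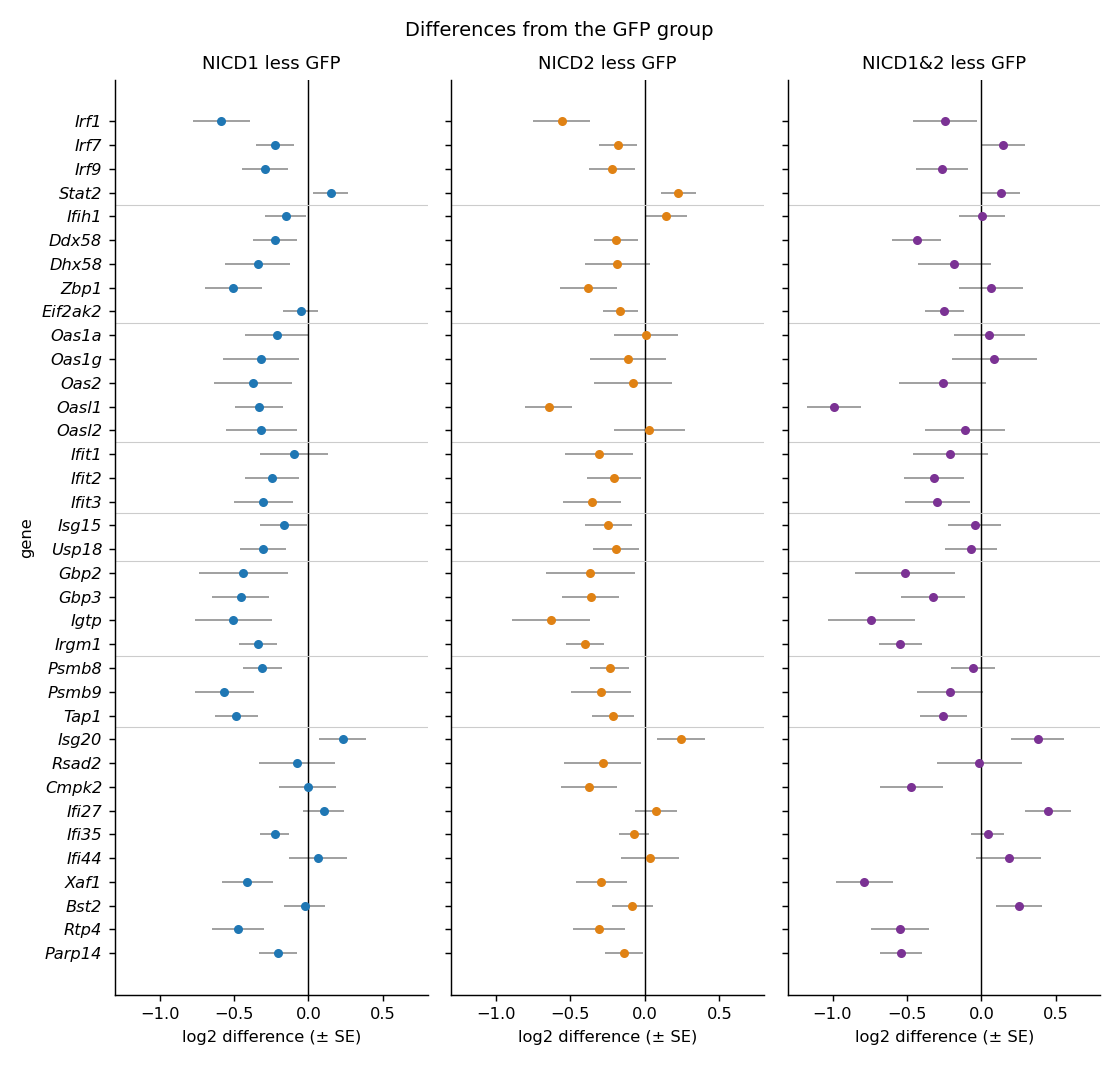
Points are log2 differences from the GFP group for 36 genes ordered by role, and lines are ± 1 SE from limma. Most points lie left of 0 in all 3 panels, and Oasl1 lies farthest left in NICD1&2 at -0.99.

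Oasl1, a 2′-5′-oligoadenylate synthetase-like protein without synthetase activity, was the one gene of the set altered by the study's definition on its probe with the highest mean. Oasl1 read 3.05, 3.00 and 3.00 on the GFP arrays, 3.06, 2.46 and 2.53 on the NICD1 arrays, 2.41, 2.51 and 2.19 on the NICD2 arrays, and 2.03 and 2.02 on the NICD1&2 arrays. The 3 GFP arrays lay close together, NICD1 replicate 1 stood at their level, and all other NICD arrays lay below every GFP array. The difference from GFP was -0.99 ± 0.18 in NICD1&2 (SE, adjusted p = 0.0998), -0.65 ± 0.16 in NICD2 (adjusted p = 0.34) and -0.33 ± 0.16 in NICD1 (adjusted p = 0.903). In NICD1&2 this is a 1.99-fold lower level, and the exact permutation p was 0.1, the smallest that 2 arrays against 3 can give. A second Oasl1 probe gave the same order of groups, with -0.99 ± 0.23 in NICD1&2, -0.73 ± 0.21 in NICD2 and -0.49 ± 0.21 in NICD1. Within the slides the NICD1&2 difference was -0.99 and -0.98. Leaving out NICD1 replicate 1, which narrows the spread shared by all groups, brought its adjusted p to 0.0332, and the range over all alternatives was 0.0332 to 0.860.

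The other members of the oligoadenylate synthetase (OAS) family, which make the second messenger that activates RNase L, showed no such order of groups. The level of Oas2 was -0.88, -0.90 and -0.35 on the GFP arrays, -1.37, -1.32 and -0.57 on the NICD1 arrays, -1.06, -0.70 and -0.60 on the NICD2 arrays, and -1.23 and -0.71 on the NICD1&2 arrays. Oas1g stood at -2.80, -3.42 and -3.04 on the GFP arrays, -3.41, -3.05 and -3.76 on the NICD1 arrays, -3.26, -3.24 and -3.11 on the NICD2 arrays, and -3.41 and -2.59 on the NICD1&2 arrays. On both probes each NICD group overlapped the GFP group. Oas2 differed from GFP by -0.37 ± 0.26, -0.08 ± 0.26 and -0.26 ± 0.29 in NICD1, NICD2 and NICD1&2, and Oas1g by -0.32 ± 0.25, -0.11 ± 0.25 and 0.09 ± 0.28. Oas1a and Oasl2 differed from GFP by -0.21 ± 0.21 and -0.32 ± 0.24 in NICD1, by 0.0048 ± 0.21 and 0.03 ± 0.24 in NICD2, and by 0.05 ± 0.24 and -0.11 ± 0.27 in NICD1&2. Over the 5 tested members of the family the median was -0.32 in NICD1, -0.079 in NICD2 and -0.11 in NICD1&2. Without GFP replicate 3 the median became -0.20, 0.099 and 0.048, so that the direction turned in NICD2 and NICD1&2. A second Oas2 probe was not well above background on any array.

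Among the transcription factors, Irf1, an early target of interferon-gamma, was the lowest of all genes of the set in NICD1. On the log2 scale, Irf1 was 4.06, 3.44 and 3.47 on the GFP arrays, 3.22, 3.17 and 2.83 on the NICD1 arrays, 3.13, 2.89 and 3.27 on the NICD2 arrays, and 3.33 and 3.49 on the NICD1&2 arrays. All NICD1 and NICD2 arrays lay below all GFP arrays, while NICD1&2 overlapped them. The difference was -0.59 ± 0.19 in NICD1 (adjusted p = 0.802), -0.56 ± 0.19 in NICD2 (adjusted p = 0.59) and -0.25 ± 0.21 in NICD1&2 (adjusted p = 0.568). The second Irf1 probe gave -0.60 ± 0.11, -0.60 ± 0.11 and -0.29 ± 0.13, and on that probe no NICD array reached a GFP array. Its adjusted p was 0.593 in NICD1 and 0.193 in NICD2. Without GFP replicate 1, the highest array for Irf1, the first probe gave -0.39, -0.36 and -0.045. Irf9, the DNA-binding part of the type I complex, differed by -0.29 ± 0.16, -0.22 ± 0.16 and -0.27 ± 0.17 with overlap of each group with GFP. Its second probe gave -0.41 ± 0.12, -0.29 ± 0.12 and -0.42 ± 0.13 (adjusted p = 0.769, 0.688 and 0.233), with no overlap with GFP in any of the 3. Irf7, which amplifies interferon-alpha induction, differed by -0.22 ± 0.13, -0.18 ± 0.13 and 0.15 ± 0.15, and its 2 probes took opposite signs in NICD1&2. Stat2 stood on the other side. The best Stat2 probe read 2.61, 2.51 and 2.63 on the GFP arrays, 2.61, 2.77 and 2.82 on the NICD1 arrays, 2.67, 2.81 and 2.96 on the NICD2 arrays, and 2.56 and 2.87 on the NICD1&2 arrays. Its NICD2 arrays lay above all GFP arrays by a mean of 0.22 ± 0.12 (adjusted p = 0.807), and NICD1 differed by 0.15 ± 0.12 and NICD1&2 by 0.13 ± 0.13. The second Stat2 probe was also higher, by 0.50, 0.36 and 0.67.

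Igtp had the largest spread over the arrays. It belongs with Gbp2, Gbp3 and Irgm1 to the GTPases that interferon-gamma induces, which attack the vacuoles of intracellular pathogens. Igtp read 3.69, 3.41 and 4.56 on the GFP arrays, 3.47, 3.19 and 3.49 on the NICD1 arrays, 3.40, 3.31 and 3.07 on the NICD2 arrays, and 3.17 and 3.13 on the NICD1&2 arrays. GFP replicate 3 alone stood high, and the other 10 arrays lay between 3.07 and 3.69. Every NICD2 and NICD1&2 array still lay below every GFP array, the closest being 3.40 against 3.41. The level of Gbp2 was 0.16, -0.09 and 1.19 on the GFP arrays, 0.05, -0.13 and 0.03 on the NICD1 arrays, 0.24, 0.22 and -0.31 on the NICD2 arrays, and -0.14 and -0.05 on the NICD1&2 arrays. For Gbp2 too GFP replicate 3 stood far above all other arrays, but each NICD group overlapped GFP. The differences from GFP were -0.50 ± 0.26, -0.63 ± 0.26 and -0.74 ± 0.29 for Igtp in NICD1, NICD2 and NICD1&2, with adjusted p of 0.903, 0.707 and 0.304. For Gbp2 they were -0.44 ± 0.30, -0.37 ± 0.30 and -0.51 ± 0.34, and for Gbp3 -0.45 ± 0.19, -0.37 ± 0.19 and -0.32 ± 0.21. Without GFP replicate 3 the Igtp differences shrank to -0.16, -0.29 and -0.40, and those of Gbp2 to -0.051, 0.020 and -0.12. Irgm1 behaved otherwise. Irgm1 stood at 2.94, 2.77 and 3.11 on the GFP arrays, 2.76, 2.46 and 2.58 on the NICD1 arrays, 2.60, 2.60 and 2.41 on the NICD2 arrays, and 2.49 and 2.30 on the NICD1&2 arrays. Every NICD array lay below every GFP array, NICD1 replicate 1 by less than 0.01, and on its other 2 probes that array lay above GFP replicate 2. The differences were -0.34 ± 0.13, -0.40 ± 0.13 and -0.54 ± 0.14 (adjusted p = 0.883, 0.536 and 0.189), and they were -0.25, -0.32 and -0.46 without GFP replicate 3. The median over the 4 GTPases was -0.45, -0.38 and -0.53 in the 3 comparisons, and -0.20, -0.22 and -0.26 without that array.

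**Figure D3:**
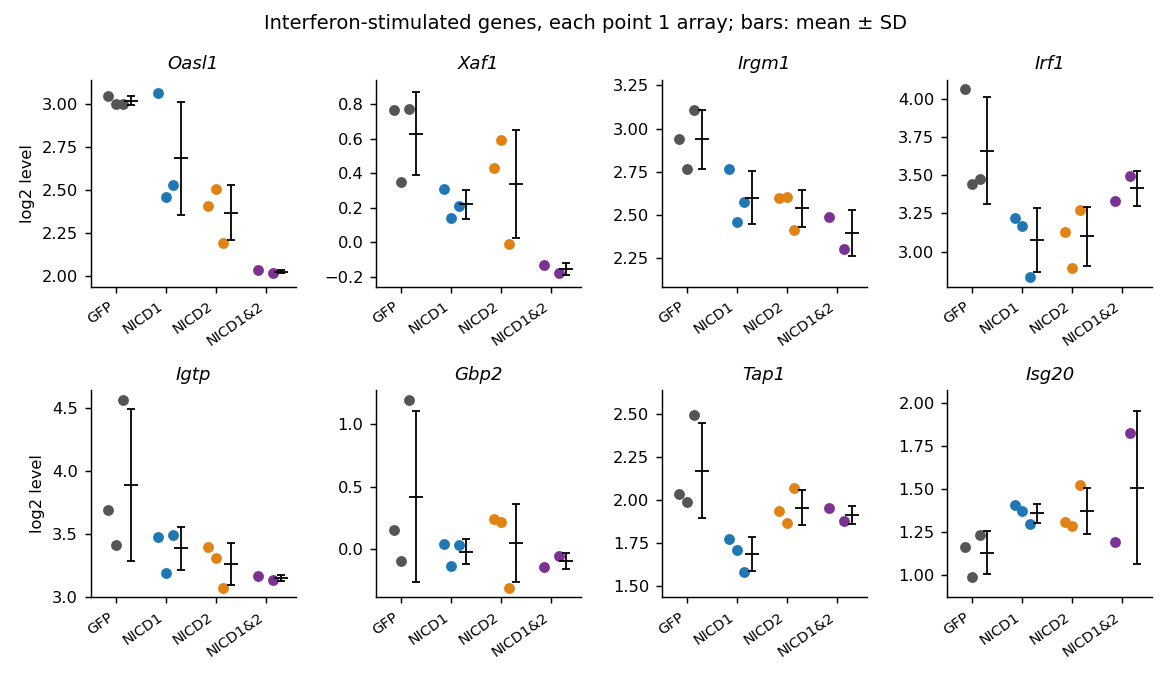
Levels of 8 interferon-stimulated genes on the log2 scale relative to each array's 75th percentile, with 1 point per array and bars for the group mean ± SD (n = 3, 3, 3 and 2). Oasl1, Xaf1, Irgm1, Igtp and Gbp2 had their lowest group mean in NICD1&2. The GFP means of Igtp and Gbp2 were raised by GFP replicate 3.

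Antigen processing genes, which cut and carry peptides to class I molecules, had lower means in NICD1 livers. On the log2 scale, Psmb9 was 2.98, 2.89 and 3.47 on the GFP arrays, 2.94, 2.44 and 2.27 on the NICD1 arrays, 2.91, 2.71 and 2.83 on the NICD2 arrays, and 2.91 and 2.90 on the NICD1&2 arrays. The best Tap1 probe read 2.03, 1.99 and 2.49 on the GFP arrays, 1.78, 1.71 and 1.58 on the NICD1 arrays, 1.94, 1.87 and 2.07 on the NICD2 arrays, and 1.95 and 1.88 on the NICD1&2 arrays. On both probes GFP replicate 3 was the highest array, and for Tap1 all NICD1 arrays lay below all GFP arrays. Psmb9, an immunoproteasome subunit, differed by -0.57 ± 0.20 in NICD1 (adjusted p = 0.853), but by 0.0041 within the first slide. In NICD2 and NICD1&2 it differed by -0.30 ± 0.20 and -0.21 ± 0.22. Tap1, a subunit of the peptide transporter, differed by -0.48 ± 0.14 in NICD1 (adjusted p = 0.769, the lowest in that comparison among the probes that stand for the 36 genes), by -0.21 ± 0.14 in NICD2 and by -0.26 ± 0.16 in NICD1&2. Its second probe gave -0.48 ± 0.16 in NICD1. Psmb8, a further immunoproteasome subunit, differed by -0.31 ± 0.13, -0.24 ± 0.13 and -0.06 ± 0.15. The median of the 3 genes was -0.48 in NICD1, -0.24 in NICD2 and -0.21 in NICD1&2, and -0.32, -0.12 and -0.029 without GFP replicate 3.

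Among the sensors of foreign nucleic acid, Ddx58 lay lower on both NICD1&2 arrays than on every GFP array, on all 4 of its probes. Ddx58 read 2.72, 2.69 and 2.77 on the GFP arrays, 2.70, 2.29 and 2.51 on the NICD1 arrays, 2.56, 2.72 and 2.31 on the NICD2 arrays, and 2.14 and 2.44 on the NICD1&2 arrays. The best probe differed by -0.44 ± 0.16 (adjusted p = 0.289), and the other 3 Ddx58 probes by -0.95, -1.03 and -1.11, with adjusted p between 0.162 and 0.265. Each of these other 3 probes met the study's definition of an altered gene, and the best probe did not. In NICD1 and NICD2 the best probe differed by -0.23 ± 0.15 and -0.19 ± 0.15. Zbp1, a sensor of left-handed nucleic acid that can start necroptosis, had a different pattern. The level of Zbp1 was 1.58, 1.31 and 2.02 on the GFP arrays, 1.19, 0.86 and 1.34 on the NICD1 arrays, 1.36, 1.31 and 1.09 on the NICD2 arrays, and 1.72 and 1.67 on the NICD1&2 arrays. The NICD1 and NICD2 means differed from GFP by -0.50 ± 0.19 and -0.38 ± 0.19, with adjusted p of 0.883 and 0.782, and the NICD1&2 arrays lay among the GFP arrays. Without GFP replicate 3 these differences were -0.31 and -0.19. Ifih1 was among the higher genes of NICD2. Ifih1 stood at 2.08, 2.11 and 2.33 on the GFP arrays, 2.26, 1.92 and 1.87 on the NICD1 arrays, 2.29, 2.43 and 2.23 on the NICD2 arrays, and 2.05 and 2.30 on the NICD1&2 arrays. The NICD2 difference was 0.15 ± 0.14 (adjusted p = 0.93), and it turned to -0.094 within the second slide. Dhx58 (LGP2), a partner of both RNA helicases, differed by -0.34 ± 0.22, -0.18 ± 0.22 and -0.18 ± 0.25. Eif2ak2 (PKR), the kinase that halts translation on double-stranded RNA, differed by -0.05 ± 0.12, -0.16 ± 0.12 and -0.25 ± 0.13.

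The IFIT and ISG15 genes, classical targets of type I interferon, had small differences. Ifit1, Ifit2 and Ifit3, which bind foreign RNA and block its translation, differed from GFP by -0.10 ± 0.23, -0.24 ± 0.18 and -0.30 ± 0.20 in NICD1, by -0.31 ± 0.23, -0.21 ± 0.18 and -0.36 ± 0.20 in NICD2, and by -0.21 ± 0.25, -0.32 ± 0.20 and -0.30 ± 0.22 in NICD1&2. Isg15, the ubiquitin-like modifier, differed by -0.17 ± 0.16, -0.25 ± 0.16 and -0.05 ± 0.18. Usp18, which removes it again, differed by -0.30 ± 0.16, -0.20 ± 0.16 and -0.07 ± 0.17. All 15 of these differences were below 0, and the lowest adjusted p among them was 0.452, for Ifit2 in NICD1&2. Without GFP replicate 3 the median of Isg15 and Usp18 turned to 0.072 in NICD1&2. Rsad2 (viperin), which makes a chain-terminating nucleotide, was variable. On the log2 scale, Rsad2 was -0.24, -0.53 and -0.59 on the GFP arrays, -0.32, -0.92 and -0.36 on the NICD1 arrays, -0.97, -1.07 and -0.18 on the NICD2 arrays, and -0.62 and -0.32 on the NICD1&2 arrays. On this probe its groups overlapped in all comparisons with GFP, while on a second probe the NICD2 arrays lay below all GFP arrays, by a mean of -0.56 ± 0.41. In NICD1&2 its probes differed from GFP by -0.01 ± 0.29 and -0.55 ± 0.45. Cmpk2, which lies beside Rsad2 and makes its substrate, differed by -0.0048 ± 0.19, -0.38 ± 0.19 and -0.47 ± 0.21, and all NICD2 and NICD1&2 arrays lay below all GFP arrays.

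Xaf1, which opposes the inhibitor of apoptosis proteins, ranked next to Oasl1 in NICD1&2. The best Xaf1 probe read 0.77, 0.35 and 0.77 on the GFP arrays, 0.31, 0.14 and 0.21 on the NICD1 arrays, 0.43, 0.59 and -0.01 on the NICD2 arrays, and -0.13 and -0.18 on the NICD1&2 arrays. Both NICD1&2 arrays lay below every other array, and all NICD1 arrays lay below all GFP arrays. The difference from GFP was -0.79 ± 0.19 in NICD1&2 (adjusted p = 0.176), -0.41 ± 0.17 in NICD1 and -0.29 ± 0.17 in NICD2. Parp14, a mono-ADP-ribosyltransferase, differed by -0.54 ± 0.14 in NICD1&2 (adjusted p = 0.186) with both NICD1&2 arrays below every GFP array, and by -0.20 ± 0.13 and -0.14 ± 0.13 in NICD1 and NICD2. Rtp4, a chaperone of membrane receptors, differed by -0.47 ± 0.18, -0.31 ± 0.18 and -0.55 ± 0.20. After normexp background correction and quantile normalization Oasl1, Xaf1, Parp14 and Rtp4 passed an adjusted p of 0.05 in NICD1&2, with values of 0.0498, 0.0470, 0.0469 and 0.0464, beside 0.96% of all probes under that setting and 0.0998% as deposited. Their log2 differences from GFP were then -0.92, -0.70, -0.55 and -0.78.

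A few genes lay above the GFP level. Isg20 read 1.16, 0.99 and 1.23 on the GFP arrays, 1.40, 1.37 and 1.29 on the NICD1 arrays, 1.30, 1.28 and 1.52 on the NICD2 arrays, and 1.19 and 1.82 on the NICD1&2 arrays. On this probe all NICD1 and NICD2 arrays of Isg20, a 3′-5′ exonuclease of single-stranded RNA, lay above all GFP arrays, while NICD1&2 replicate 1 lay among them. The differences were 0.23 ± 0.16, 0.24 ± 0.16 and 0.38 ± 0.18, with adjusted p of 0.914, 0.864 and 0.356. A second probe gave 0.10 ± 0.13, 0.27 ± 0.13 and 0.31 ± 0.14, and on it the NICD1 arrays overlapped GFP. The level of Ifi27 was 6.03, 5.84 and 5.89 on the GFP arrays, 6.12, 5.73 and 6.22 on the NICD1 arrays, 5.99, 6.02 and 5.98 on the NICD2 arrays, and 6.24 and 6.49 on the NICD1&2 arrays. Both NICD1&2 arrays of Ifi27, a mitochondrial protein of the ISG12 family, lay above every GFP array, by a mean of 0.45 ± 0.16 (adjusted p = 0.267), and a second probe gave 0.33 ± 0.16. Bst2 stood at 6.11, 6.01 and 6.18 on the GFP arrays, 6.06, 6.10 and 6.07 on the NICD1 arrays, 6.12, 6.13 and 5.81 on the NICD2 arrays, and 6.13 and 6.58 on the NICD1&2 arrays. For Bst2 (tetherin), which holds budding virions at the cell surface, NICD1&2 replicate 2 was high and replicate 1 lay at the GFP level, and the difference was 0.26 ± 0.15 (adjusted p = 0.433). Ifi44 differed by 0.06 ± 0.20, 0.03 ± 0.20 and 0.19 ± 0.22. Ifi35 differed by -0.23 ± 0.10, -0.07 ± 0.10 and 0.04 ± 0.11.

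Direct comparisons of the NICD groups called no gene of the set. In NICD1 against NICD2, 0 of 36 genes passed the adjusted p (0.00277% of all probes) and 0 were altered by the study's definition (1.26% of all probes), with a median of -0.066. In NICD1&2 against NICD1, 0 passed (0.0139% of all probes) and 0 were altered (2.7%), with a median of 0.12 beside 0.10 for all probes. In NICD1&2 against NICD2, 0 passed (0.00277%) and 0 were altered (3.06%), with a median of 0.022 beside 0.096. Other Ddx58 probes met the study's definition, with lower levels in NICD1&2, at 1.91-fold against NICD1 and 1.85-fold against NICD2. The shares of all probes that passed moved with 1 array. Without NICD1&2 replicate 1 they were 0.566% against NICD1, 0.344% against NICD2 and 0.621% against GFP, and without replicate 2 they were 0%, 0% and 0.0111%, while 0 genes of the set passed against GFP in either case. At an unadjusted p under 0.05 there were 0, 5 and 3 genes in these comparisons, beside 3.74%, 12.5% and 8.90% of all probes, and the unmoderated model passed 0 in each. Oasl1 was lower in NICD1&2 than in NICD1 by a log2 difference of -0.66 ± 0.18 (SE, adjusted p = 0.346) and lower than in NICD2 by -0.34 ± 0.18 (adjusted p = 0.575).

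The wider pathway was read through 104 further genes, of which 88 were tested. None passed an adjusted p of 0.05 against GFP, and 10, 14 and 22 had an unadjusted p under 0.05 in NICD1, NICD2 and NICD1&2, beside 5.48%, 6.81% and 14.8% of all probes. Of the 88, 67, 58 and 50 had a lower mean than in GFP, with medians of -0.14, -0.081 and -0.11, beside 47.1%, 45.7% and 35% of all probes. By the study's definition 2, 3 and 9 were altered, all of them lower, beside 2.22%, 1.98% and 6.23% of all probes. These include Ifng, described next, which was well above background on 3 arrays and passed the probe filter through its GFP arrays, and without it they were 1, 2 and 8.

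Of 15 ligand genes with a probe, Ifna2, Ifna4, Ifna7, Ifna12 and Ifne were not well above background on any array, and the other 10 were tested. Ifna9, Ifna11, Ifnk and Ifnl3 were well above background on 11 of 11 arrays, Ifna14 on 10, Ifna1 on 8, Ifna5 on 4, Ifng on 3, and Ifna13 and Ifnb1 on 2. Whether each of these probes read only the gene it is named for was not tested. In NICD1, NICD2 and NICD1&2, 6, 7 and 7 of the 10 had a higher mean than in GFP, with medians of 0.06, 0.15 and 0.25, beside 52.9%, 54.3% and 65.0% of all probes and medians of 0.01, 0.02 and 0.12. Ifna11 and Ifna9 had an unadjusted p under 0.05 in NICD1&2, where they differed from GFP by 0.80 ± 0.31 and 0.57 ± 0.23 (adjusted p = 0.299 and 0.316). Ifng, the type II interferon, had a lower mean than GFP in each NICD group. It read -4.32, -5.09 and -2.94 on the GFP arrays, of which 2 were well above background, and on 1 of the 8 NICD arrays. As no NICD1 or NICD1&2 array was well above background, its differences there are bounds, of at least 2.22-fold lower in NICD1 and at least 1.67-fold lower in NICD1&2 (adjusted p = 0.911 and 0.376). The bound sets the GFP mean against the higher of the dim probe's own signal and the lowest signal well above background on each array. It rested on GFP replicate 3, without which 1 of 2 GFP arrays was well above background and the bounds were 1.48-fold and 1.11-fold. In NICD2, where 1 array was well above background, the same ratio without GFP replicate 3 was 1.06-fold. The receptors Ifnar1, Ifnar2, Ifngr1, Ifngr2 and Il10rb and the kinases Jak1, Jak2 and Tyk2 differed from GFP by between -0.28 and 0.17, with a lowest adjusted p of 0.391, and Ifnlr1 was not tested. Other probes of the type I receptor differed more. A second Ifnar2 probe differed by -0.46, -0.90 and -0.49 in NICD1, NICD2 and NICD1&2 (adjusted p = 0.802, 0.110 and 0.261), and 2 other Ifnar1 probes differed by -0.49 and -0.69 in NICD1&2 (adjusted p = 0.356 and 0.186).

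**Figure D4:**
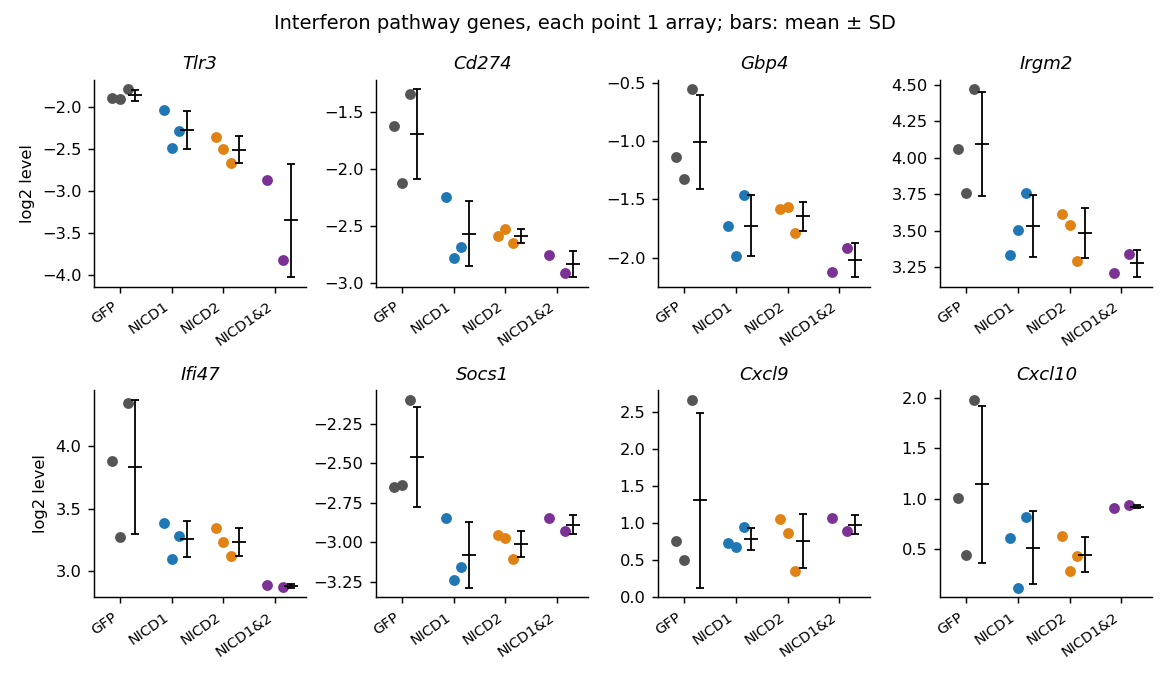
Levels of 8 further genes of the interferon pathway on the log2 scale, with 1 point per array and bars for the group mean ± SD (n = 3, 3, 3 and 2). Tlr3 and Cd274 were below the GFP arrays in every NICD group, and Cxcl9 and Cxcl10 were high on 1 GFP array.

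Tlr3, the endosomal receptor for double-stranded RNA, had the lowest adjusted p of the pathway. It read -1.89, -1.91 and -1.79 on the GFP arrays, -2.04, -2.50 and -2.28 on the NICD1 arrays, -2.36, -2.51 and -2.68 on the NICD2 arrays, and -2.88 and -3.83 on the NICD1&2 arrays. Every NICD array lay below every GFP array. The difference was -0.41 ± 0.23 in NICD1, -0.65 ± 0.23 in NICD2 and -1.49 ± 0.25 in NICD1&2, with adjusted p of 0.905, 0.598 and 0.092. Without NICD1&2 replicate 1 the last became -1.97 with an adjusted p of 0.019 (0.621% of all probes passed), and without replicate 2 it became -1.01 with an adjusted p of 0.312. Either fit leaves 1 NICD1&2 array, which is assumed to vary like the other groups. A second Tlr3 probe, well above background on 4 of 11 arrays, gave -0.36, -0.64 and -0.82.

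Cd274 (PD-L1), which restrains T cells and is raised by interferon-gamma, was altered by the study's definition in all 3 comparisons. It read -1.62, -2.12 and -1.34 on the GFP arrays, -2.25, -2.78 and -2.68 on the NICD1 arrays, -2.59, -2.53 and -2.65 on the NICD2 arrays, and -2.75 and -2.91 on the NICD1&2 arrays, with no overlap between GFP and any NICD group. The differences were -0.88 ± 0.21, -0.90 ± 0.21 and -1.14 ± 0.23 (adjusted p = 0.68, 0.289 and 0.129), and they were -0.70, -0.72 and -0.96 without GFP replicate 3, so that the first 2 no longer met the 1.8-fold limit. In NICD1&2 the definition also took in Ciita, the class II transactivator (-1.21 ± 0.33), Ddx60, a helicase (-1.48 ± 0.49), the guanylate-binding proteins Gbp4 (-1.01 ± 0.23), Gbp5 (-0.95 ± 0.34) and Gbp7 (-0.86 ± 0.24), and Ifi47, an immunity-related GTPase (-0.95 ± 0.26), with adjusted p between 0.159 and 0.276. A second Ciita probe gave -0.30 and a second Ddx60 probe -0.79. The first Ddx60 probe was well above background on 1 of 2 NICD1&2 arrays, and without NICD1&2 replicate 2 Ddx60 differed by -0.75 and Gbp7 by -0.52. Without GFP replicate 3, Gbp4 differed by -0.79, Gbp5 by -0.65, Gbp7 by -0.70 and Ifi47 by -0.69, all short of the 1.8-fold limit. Among the inhibitors, Socs3 differed by -1.63 ± 0.71 in NICD2 (adjusted p = 0.721) on arrays that ranged from 0.26 to 3.39. Socs1 read below the GFP arrays on every NICD array and differed by -0.62 ± 0.17, -0.55 ± 0.17 and -0.43 ± 0.19 (adjusted p = 0.741, 0.493 and 0.333).

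Some markers of other liver cells were higher on some of the same arrays, and others were not. The mean of 8 Kupffer cell markers, all well above background on every array, was 3.17, 2.60 and 3.20 on the GFP arrays, 2.59 to 2.77 on the NICD1 arrays, 2.67 to 2.88 on the NICD2 arrays, and 3.18 and 2.96 on the NICD1&2 arrays. GFP replicates 1 and 3 were thus high for these markers as they were for the interferon-stimulated genes, but NICD1&2 replicate 1 was as high on this mean while its interferon-stimulated genes were not. That mean rested on Marco, a scavenger receptor, at 4.49 on NICD1&2 replicate 1 and 2.16 to 3.81 on the other arrays. Without Marco the mean of the other 7 was 3.08, 2.64 and 3.15 on the GFP arrays and 2.99 and 2.96 on the NICD1&2 arrays, against 2.65 to 2.88 on the NICD1 and NICD2 arrays. All 8 markers had a lower mean in NICD1 than in GFP, 7 in NICD2 and 4 in NICD1&2, and none passed an adjusted p of 0.05. The mean of 7 monocyte and neutrophil markers, of which 4 were well above background on all arrays, was -1.99, -2.61 and -1.74 on the GFP arrays and between -2.71 and -1.99 on the NICD arrays. For 6 natural killer cell markers, 3 of them well above background on all arrays, GFP replicate 3 was the highest array at -2.58, against -3.66 to -2.82 on the others. For 8 T cell markers it was -0.91, beside -0.92 and -0.88 on the NICD1&2 arrays and -1.45 to -1.09 on the remaining arrays. GFP replicate 1, high for the interferon-stimulated genes, was the lowest array for both lists, at -3.66 and -1.45. The mean of 5 markers of plasmacytoid dendritic cells, the main makers of interferon-alpha, lay between 0.38 and 0.81. It was highest on GFP replicate 2. All 5 B cell markers had a lower mean than in GFP in NICD1 and in NICD2 (medians of -0.32 and -0.27), and 4 of 5 in NICD1&2. Their array mean was also highest on GFP replicate 2, at -2.01, where the interferon-stimulated genes lay among the NICD arrays. The mean of 3 red blood cell markers was 5.93 on NICD1&2 replicate 2, where Isg20, Ifi27 and Bst2 were also high, against 4.98 to 5.51 on the other arrays. The part of these cells in the levels of the interferon-stimulated genes was not tested.

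**Figure D5:**
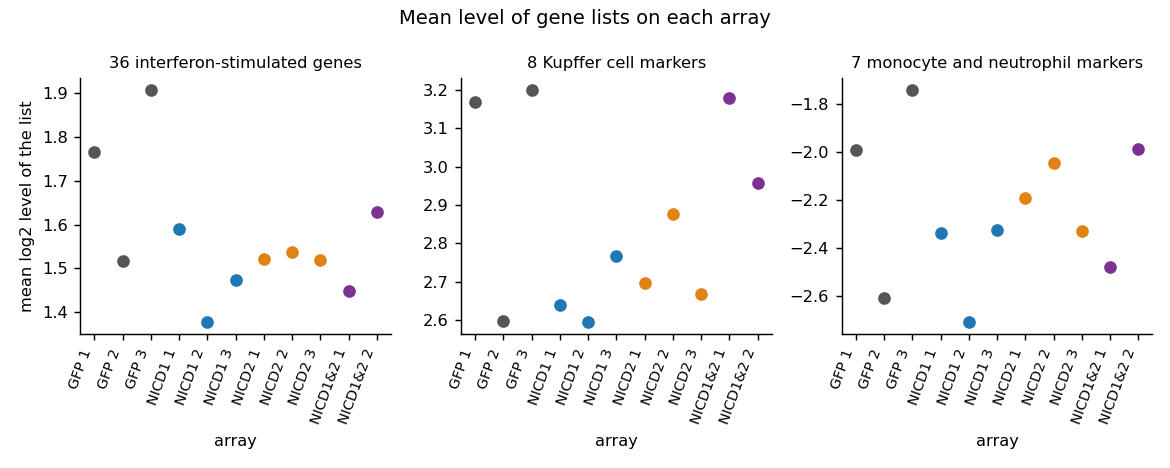
Mean log2 level over each gene list on each of the 11 arrays, with arrays named by group and replicate; the axes do not start at 0. GFP replicates 1 and 3 lie highest for the interferon-stimulated genes and are also high for the Kupffer cell markers.

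The genes varied together over the arrays to different degrees. The correlation of a gene with the mean of the other 35 over 11 arrays had a median of 0.59, was over 0.5 for 24 genes and was highest for Gbp3 (0.89), Usp18 (0.88) and Isg15 (0.86). It was below 0 for Stat2, Ifi44, Isg20 and Ifi27. Outside the set, the genes most like the mean of the 36, among 16599 genes compared by Pearson's r over the 11 arrays, were H2-Q5, a class I histocompatibility gene (r = 0.93), Ckb, the brain type creatine kinase (0.93), Apol9a (0.91), Hk3, a hexokinase of myeloid cells (0.91), and Apol9b (0.90). Spearman's rho was 0.85, 0.92, 0.82, 0.78 and 0.79. Without GFP replicates 3 and 1, the 2 arrays farthest from the median, r became 0.80, 0.91, 0.83, 0.67 and 0.77, and over the 6 arrays of the first slide it was 0.97, 0.87, 0.86, 0.71 and 0.81. These are descriptions of 11 arrays that share their groups and slides, chosen as the highest of many, and H2-Q5 has near-identical relatives whose RNA its probe may also read. H2-Q5 itself read 3.14, 2.84 and 3.33 on the GFP arrays and 2.69 to 3.18 on the NICD arrays.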

How the data were processed

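RNA of whole liver from 11 mice was hybridised to 1-colour Agilent arrays. Per the file headers, spot intensities were read and background-corrected with Feature Extraction 11.5.1.1. The authors turned these into the deposited log2 values, each less the 75th percentile of its array, with GeneSpring GX. Groups were taken from the sample labels.

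The deposited log2 values were analysed with limma 3.58.1 in R 4.3.3 (lmFit and eBayes), with 1 mean per group over all 11 arrays, on the 36058 of 56605 probes that were well above background on at least 2 arrays. P-values were adjusted by the Benjamini-Hochberg method over all tested probes, and an adjusted p under 0.05 was called. A gene was read through its tested probe with the highest mean, and probes were named through RefSeq accessions. Intensities as deposited served for alternative normalizations (normexp with an offset of 50, quantile) and for flags. Other alternatives were the probe filter, the groups fitted, slide and replicate blocks, fits within slides, an unmoderated model, the mean of all probes of a gene, other thresholds and leaving out each array. The number of arrays limits the precision.

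Values on every array are given for genes called or altered, for the 10 with the largest SD over arrays and for the 3 highest and 3 lowest in each comparison with GFP. The other genes of the pathway are named where they were called or altered, or are an interferon or a receptor with a probe, and 1 further gene of the pathway is not reported here. Second probes, further inhibitors and genes that lay apart were chosen for mention after their values were seen. The genes and lists were chosen with earlier results of these data known. The fits were tested on simulated data.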

Additional observations from a re-analysis of the deposited data

How the results depend on the processing

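Of 444 values on the whole set under alternatives, 425 stayed within 1.5 times or the spread between arrays. A further 432 values covered only the 3 highest and 3 lowest genes in each comparison with GFP. Of these, 426 kept their direction and their side of the threshold. The genes passing the adjusted p in NICD1&2 against GFP, 0 as reported, were 4 after normexp and quantile normalization (0.96% of all probes), 1 with probes well above background on all 11 arrays (0.41%), 1 at an adjusted p under 0.15 (1.04%), and 0 to 1 when single arrays were left out, with 1 (Oasl1) without NICD1 replicate 1. Genes altered by the study's definition in that comparison, 1 as reported (6.23% of all probes), were 2 with the 75th percentile over probes detected on all arrays (5.53%), 2 after normexp and quantile normalization (0.485%), 2 with the mean of all probes (6.65%), 4 within the second slide (9.43%), 0 at p under 0.05 and fold over 2 (2.37%), and 1 to 3 when arrays were left out, with 3 (Oasl1, Igtp and Xaf1) without GFP replicate 2 (10.3%). Within the second slide they were 5 in NICD1 (4.14%) and 4 in NICD2 (5.84%). In NICD2 they were 0 to 1 when arrays were left out, with 1 (Igtp) without GFP replicate 2 (4.22%), and in NICD1&2 against NICD1 they were 1 within the first slide (3.71%). The median against GFP was -0.0048 within the first slide and -0.45 within the second for NICD1, and -0.36 within the second for NICD2. For NICD1&2 against NICD1 it was -0.12 within the first slide and ranged from -0.084 without NICD1&2 replicate 2 to 0.20 without NICD1&2 replicate 1. Among the 3 highest and 3 lowest genes the direction turned for Psmb9 in NICD1 (0.0041 within the first slide) and Ifih1 in NICD2 (-0.094 within the second). Other genes also turned under some settings, such as Gbp2 in NICD2 (-1.50 to 0.20) and Dhx58 in NICD1 (-0.81 to 0.18). So did Ifit1 in NICD1 (-0.41 to 0.36) and Irf1 in NICD1&2 (-0.42 to 0.022). Fits within a slide hold fewer arrays; for the other changes the cause was not tested. Under other scalings 25 to 29 genes lay below GFP in NICD1&2, and 346 probes passed after normexp and quantile normalization against 36 as reported.

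Replicate numbers did not pair the arrays: of 15 pairs with the same number, 6 had correlated deviations over 0.1, within a range of -0.41 to 0.17. With the replicate block, 0, 0 and 0 genes passed in NICD1, NICD2 and NICD1&2 against GFP, with medians of -0.30, -0.21 and -0.16.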
